A study of Mus musculus with 6 samples.

Results

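The genes described here are 35 ion channel, calcium pump, exchanger and calcium store genes of vascular smooth muscle, out of 27815 gene identifiers measured in mouse aorta. They were listed by name for their roles, with earlier results of these data known. They were found by matching Ensembl identifiers to symbols, and all 35 were in the files. Polyadenylated RNA of C57BL/6 aortas was sequenced in 6 libraries, 2 in each of 3 groups. The Ctrl group was wild type with an age label of 2 months. The ApoE group was ApoE-/-, carried an age label of 16 months and had been fed chow until its atherosclerotic lesions calcified. The CKD group, a model of chronic kidney disease, lost the poles of the left kidney at 8 weeks of age and the whole right kidney 1 week later. It then received food with 2% phosphate and 0.45% NaCl in its drinking water over 4 weeks, a regimen used to calcify the medial layer. The age label of the CKD libraries is 16 months, which conflicts with that schedule, so how old these mice were is not certain. Between ApoE and Ctrl the genotype and the labelled age both differ, and their effects cannot be told apart. CKD differs from Ctrl in operations, food, drinking water and labelled age, and from ApoE in genotype, operations, food and drinking water. As the age of the CKD mice is not certain, CKD and ApoE may differ in age too. These effects cannot be told apart either. The labels do not say that the libraries came from separate animals, and the protocol mentions pooled samples for miRNA sequencing, so p-values here reflect library-to-library spread alone, and that spread may be technical.

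Contraction of arterial smooth muscle follows the calcium concentration of the cytosol. Calcium enters through voltage-gated, store-operated and transient receptor potential (TRP) channels of the plasma membrane and is released from the sarcoplasmic reticulum by inositol trisphosphate (IP3) receptors and ryanodine receptors. Pumps and exchangers clear it again, while potassium and chloride channels set the membrane voltage that gates calcium entry. Large-conductance potassium channels are opened by local calcium release and oppose constriction.

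Values are FPKM, a read count divided by exon length and library depth. Levels of different genes can be compared on this scale where few exon bases are shared with other genes. The 6 libraries held 14.44 to 16.64 M reads by the scale of the values themselves. Apoe, the gene deleted in the ApoE group, stood at 756 and 627 FPKM in Ctrl, 13.2 and 11.4 in ApoE and 1410 and 1447 in CKD. Smooth muscle markers were present in every library: Myh11, smooth muscle myosin, stood at 1123 and 1039 FPKM in Ctrl, 60.0 and 51.6 in ApoE and 554 and 755 in CKD. Acta2, smooth muscle actin, stood at 6034 and 5402 FPKM in Ctrl, 494 and 437 in ApoE and 2393 and 4527 in CKD. Summed over 22 macrophage markers, the level was 790 and 716 FPKM in Ctrl, 12446 and 17519 in ApoE and 1552 and 2507 in CKD. The part of these markers in the results that follow was not tested. In whole aorta, fewer smooth muscle cells and less RNA per smooth muscle cell cannot be told apart.

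Differences between groups are on the scale log2(FPKM + 1), and the standard error (SE) of each is limma's. A gene was called when its Benjamini-Hochberg adjusted p over all 14074 genes tested was below 0.05, and "rose" and "fell" are used only of called genes. Of the 35 genes, 29 reached 1 FPKM in at least 2 libraries and were tested, and 22 reached it in all 6. None of the 29 was tested through a single group alone, but 6 reached the minimum without the ApoE libraries (Cacna1c, Cacna1g, Cacnb2, Ryr2, Trpc1 and Kcnma1). Cacna1h, Ryr3, Pln, Casq2, Trpc6 and Kcnq5 were too low to be tested.

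In ApoE against Ctrl, 19 of the 29 genes were called, where 44.1% of all genes tested were. Of these 16 fell, where 24.3% of all genes tested fell, and 3 rose, where 19.8% of all genes tested rose. The 16 include Cacna1c, Cacnb2, Ryr2, Trpc1 and Kcnma1, which reached the minimum without the ApoE libraries. The median difference of the 29 was -0.79, and that of all genes was -0.07. In CKD against Ctrl, 1 of the 29 was called, where 5.44% of all genes tested were. It fell, where 3.21% of all genes tested fell, and 0 rose, where 2.23% rose. There the median was 0.09, against -0.03 over all genes. At an unadjusted p below 0.05, limma gave 12 of the 29 in CKD against Ctrl, 9 lower and 3 higher, where 30% of all genes passed. In ApoE against CKD, 19 of the 29 were called, where 39.7% of all genes tested were, and 18 fell, where 21.2% of all genes tested fell, and 1 rose, where 18.5% rose, with a median of -0.86 against -0.04. The 18 include these genes and Cacna1g, which also reached the minimum without the ApoE libraries. The comparisons share libraries pairwise and are not independent of each other.

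**Figure D1:**
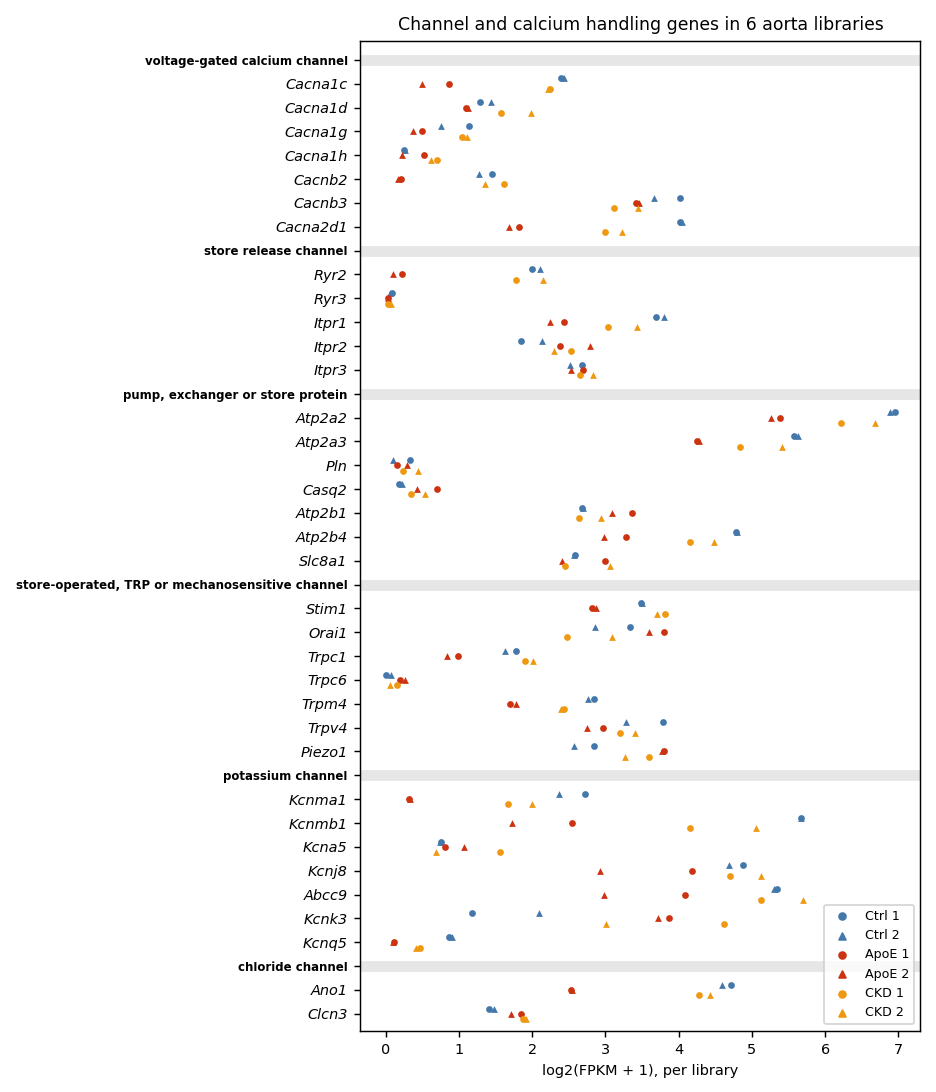
Level of each of the 35 genes in each library, as log2(FPKM + 1), grouped by role. Circles are replicate 1 and triangles replicate 2, in blue for Ctrl, red for ApoE and orange for CKD. The red points lie left of the blue and orange points for Cacna1c, Cacna2d1, Ryr2, Kcnma1, Kcnmb1 and Ano1, and right of the blue points for Piezo1 and Kcnk3.

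Promoter stretches are printed for 5 genes, chosen because they bear on the genes that fell most or hold a letter match searched for. They are RefSeq sequences of the GRCm38.p6 table, 5′ to 3′ on the strand of the gene. The table gave 36 promoters, of 300 bases each, for 28 of the 35 genes. Capitals mark a match, on either strand, to the CArG box of serum response factor (CC, then 6 bases that are A or T, then GG, with at most 1 of the 6 being G or C in the relaxed form) or to GGAATG, the core bound by TEAD factors. Cacna1c has 2 start sites with a relaxed CArG match, at chr6:119196410-119196484 (minus strand) and chr6:118758004-118758103 (minus strand). Trpc6 holds an exact CArG box at chr9:8543975-8544074 (plus strand).
Cacna1c, first start: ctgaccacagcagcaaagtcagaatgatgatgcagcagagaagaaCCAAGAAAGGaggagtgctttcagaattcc
Cacna1c, second start: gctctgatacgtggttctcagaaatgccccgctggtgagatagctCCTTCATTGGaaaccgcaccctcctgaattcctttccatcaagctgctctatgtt
Trpc6: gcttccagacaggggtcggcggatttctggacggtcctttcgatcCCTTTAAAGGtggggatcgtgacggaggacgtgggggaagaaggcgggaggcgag

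The TEAD core lies upstream of Abcc9 at chr6:142702443-142702524 (minus strand) and, as its reverse complement, of Atp2b4 at chr1:133753889-133753984 (minus strand). The 200 bases before the start of Kcnmb1, at chr11:33962813-33963012 (plus strand), are shown because that gene had the largest fall of the 29 in ApoE against Ctrl, and they hold no match to the motifs searched.
Abcc9: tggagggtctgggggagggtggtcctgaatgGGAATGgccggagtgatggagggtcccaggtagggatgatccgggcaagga
Atp2b4: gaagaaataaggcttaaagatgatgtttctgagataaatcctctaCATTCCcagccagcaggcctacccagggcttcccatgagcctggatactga
Kcnmb1: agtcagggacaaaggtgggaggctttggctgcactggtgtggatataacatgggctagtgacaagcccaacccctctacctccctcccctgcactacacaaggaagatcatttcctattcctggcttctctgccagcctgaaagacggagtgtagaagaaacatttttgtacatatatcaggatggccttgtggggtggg

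Among all 32851 RefSeq promoters of this length, 1.63% held an exact CArG box, and among the 28 genes only Trpc6 did. The relaxed form was in 9.98% of all promoters and in those of Cacna1c, Slc8a1, Trpc6 and Trpv4. The MEF2 box was in 3.19% of all promoters and in those of Abcc9, Casq2 and Clcn3. GGAATG was in 14.7% of all promoters and in those of Abcc9, Atp2b4, Clcn3 and Kcna5. GGGCGG, the Sp1 core, was in 35.7% of all promoters and in 21 of the 36 promoters of these genes. A match describes letters within 300 bases and shows no binding.

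Voltage-gated calcium channels were led by falls in ApoE of the L-type pore and of 2 auxiliary subunits. Cacna1c (GRCm38 chromosome 6, 118587240 to 119196418) encodes Cav1.2, the pore that carries most depolarization-driven calcium entry in arterial muscle. Its level was 4.24 and 4.39 FPKM in Ctrl, 0.817 and 0.403 in ApoE and 3.71 and 3.65 in CKD. Both ApoE libraries lay far below the other 4, and the CKD libraries lay just below Ctrl. Cacna1c fell by 1.73 (SE 0.16, adjusted p = 0.000827) in ApoE against Ctrl and by 1.55 (adjusted p = 0.00174) against CKD, and the difference of CKD from Ctrl was -0.18 (adjusted p = 0.487, 95% interval -0.58 to 0.22).

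Cacna2d1 encodes the alpha2delta-1 subunit, which promotes delivery of the pore to the membrane. The gene (chromosome 5, 15934691 to 16374511) stood at 15.3 and 15.5 FPKM in Ctrl, 2.54 and 2.1996 in ApoE and 6.97 and 8.39 in CKD. The 3 groups did not overlap, with CKD between the others. Cacna2d1 fell by 2.28 (SE 0.13, adjusted p = 0.000257) in ApoE against Ctrl, by 1.36 (adjusted p = 0.00146) in ApoE against CKD and by 0.92 (adjusted p = 0.0306) in CKD against Ctrl. The last was the only call among the 29 genes in CKD against Ctrl. It was lost without Ctrl 1 (adjusted p = 0.200), Ctrl 2 (0.165), CKD 1 (0.0769), ApoE 1 (0.0636) or ApoE 2 (0.0625), with the replicate block (0.0726), with only the 4 libraries compared (0.0576), without the filter on low values (0.074) and with white adipocyte level as a covariate (0.435).

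Cacnb2, a beta subunit that binds the pore from the cytosol, stood at 1.74 and 1.41 FPKM in Ctrl, 0.152 and 0.122 in ApoE and 2.07 and 1.56 in CKD. Both ApoE libraries lay far below the other 4. It fell by 1.18 (adjusted p = 0.00342) in ApoE against Ctrl and by 1.30 (adjusted p = 0.00314) against CKD. The other beta subunit listed, Cacnb3, stood at 15.2 and 11.7 FPKM in Ctrl, 9.69 and 9.96 in ApoE and 7.67 and 9.85 in CKD, and was called in no comparison. Its ApoE difference was -0.40 (adjusted p = 0.109).

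The remaining pore genes were lower in level. Cacna1d, the L-type pore Cav1.3, stood at 1.44 and 1.69 FPKM in Ctrl, 1.13 and 1.17 in ApoE and 1.96 and 2.96 in CKD. Cacna1g, a T-type pore that opens at more negative voltages, stood at 1.20 and 0.684 FPKM in Ctrl, 0.415 and 0.292 in ApoE and 1.05 and 1.15 in CKD. Both were lower in ApoE than in CKD, by -0.67 (adjusted p = 0.0314) for Cacna1d and -0.64 (adjusted p = 0.0431) for Cacna1g, and neither was called against Ctrl. The Cacna1d call was lost without ApoE 1 (0.113), ApoE 2 (0.115), CKD 2 (0.096), Ctrl 1 (0.0603) or Ctrl 2 (0.0602), with only the 4 libraries compared (0.0574) and without the filter on low values (0.0618). The Cacna1g call was lost without any 1 of the 6 libraries (adjusted p of 0.0512 to 0.174), with the replicate block (0.0665), without the filter (0.0657) and with white adipocyte level as a covariate (0.0572). Cacna1h, another T-type pore, lay between 0.165 and 0.617 FPKM and was not tested. Among these 4 pore genes, Cacna1c made up 60.0% and 63.0% of the summed FPKM in Ctrl, 29.2% and 19.8% in ApoE and 50.6% and 44.0% in CKD. The groups did not overlap in this share, and an exact permutation test of 2 libraries against 2 cannot give a two-sided p below 0.333.

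Store release channels split by gene. Ryr2, a ryanodine receptor that opens on local calcium, stood at 2.98 and 3.30 FPKM in Ctrl, 0.168 and 0.0678 in ApoE and 2.41 and 3.42 in CKD. The ApoE libraries stood apart, and the Ctrl and CKD libraries overlapped. Ryr2 (chromosome 13, 11553102 to 12106945) fell by 1.89 (SE 0.18, adjusted p = 0.000803) in ApoE against Ctrl and by 1.80 (adjusted p = 0.00142) against CKD. CKD differed from Ctrl by -0.09 (adjusted p = 0.755, interval -0.52 to 0.34). Ryr3, another ryanodine receptor, did not exceed 0.0570 FPKM, or 18 reads, in any library and was not tested.

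Of the IP3 receptors, Itpr1 alone was called. Itpr1 (chromosome 6, 108213096 to 108551109) stood at 11.9 and 13.0 FPKM in Ctrl, 4.40 and 3.74 in ApoE and 7.21 and 9.73 in CKD. The groups did not overlap. It fell by 1.41 (SE 0.17, adjusted p = 0.00183) in ApoE against Ctrl and by 0.89 (adjusted p = 0.00984) against CKD, and CKD differed from Ctrl by -0.52 (adjusted p = 0.110). The ApoE and CKD difference was not called without ApoE 2 (adjusted p = 0.065).

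Itpr2 and Itpr3 encode the other IP3 receptors. Itpr2 stood at 2.60 and 3.41 FPKM in Ctrl, 4.19 and 5.88 in ApoE and 4.76 and 3.91 in CKD, above Ctrl in all 4 other libraries, with an ApoE difference of 0.59 (adjusted p = 0.0542, and 0.0493 without ApoE 1). Itpr3 lay between 4.73 and 6.14 FPKM with all groups overlapping, and its ApoE difference was 0.02 (interval -0.32 to 0.36). The make-up of the family thus differed between libraries: Itpr1 held 59.9% and 61.4% of the summed FPKM in Ctrl, 31.2% and 26.0% in ApoE and 41.9% and 49.2% in CKD. Itpr2 held 13.1% and 16.1% in Ctrl, 29.8% and 40.8% in ApoE and 27.6% and 19.8% in CKD. In ApoE 2 it was the most abundant of the 3, and in ApoE 1 Itpr3 was, at 39.0%.

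The reticulum pumps Atp2a2 and Atp2a3 were the most abundant of the listed calcium genes in every library. Atp2a2, the SERCA2 pump that refills the sarcoplasmic reticulum, stood at 123 and 118 FPKM in Ctrl, 40.6 and 37.2 in ApoE and 73.7 and 101 in CKD. Atp2a3, the SERCA3 pump, stood at 46.4 and 48.3 FPKM in Ctrl, 18.0 and 18.5 in ApoE and 27.6 and 41.4 in CKD. For both genes ApoE was lowest, Ctrl highest and CKD between them without overlap. In ApoE against Ctrl, Atp2a2 fell by 1.61 (SE 0.19, adjusted p = 0.00188) and Atp2a3 by 1.33 (SE 0.20, adjusted p = 0.00445). Against CKD Atp2a2 differed by -1.13 (adjusted p = 0.00730) and Atp2a3 by -0.86 (adjusted p = 0.0214). The Atp2a2 call against CKD was lost without ApoE 2 (0.0539), and that of Atp2a3 without ApoE 1 (0.0929) or ApoE 2 (0.0938). CKD differed from Ctrl by -0.47 for each, with adjusted p of 0.167 and 0.185. Atp2a3 made up 27.2% to 33.2% of the summed FPKM of the pair over the 6 libraries.

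Plasma membrane calcium pumps expel calcium from the cell, and the members listed moved in opposite directions in ApoE. Atp2b4 (chromosome 1, 133699457 to 133801041) stood at 26.6 and 26.8 FPKM in Ctrl, 8.67 and 6.90 in ApoE and 16.8 and 21.3 in CKD. Atp2b1 stood at 5.38 and 5.47 FPKM in Ctrl, 9.24 and 7.48 in ApoE and 5.21 and 6.68 in CKD. Atp2b4 fell by 1.66 (SE 0.17, adjusted p = 0.000999) in ApoE against Ctrl and by 1.19 (adjusted p = 0.00398) against CKD, while Atp2b1 rose by 0.54 (SE 0.16, adjusted p = 0.0395) against Ctrl. The Atp2b1 call was lost without ApoE 1 (0.161), ApoE 2 (0.0613), Ctrl 1 (0.163) or Ctrl 2 (0.143), and with the replicate block (0.0724). It was also lost without the filter on low values (0.0799), with scaling that leaves out the most abundant genes (0.0592) and with white adipocyte level as a covariate (0.145). Atp2b4 was 83.2% and 83.0% of the pair in Ctrl, 48.4% and 48.0% in ApoE and 76.3% and 76.1% in CKD, with narrow spread inside each group and no overlap between groups.

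**Figure D2:**
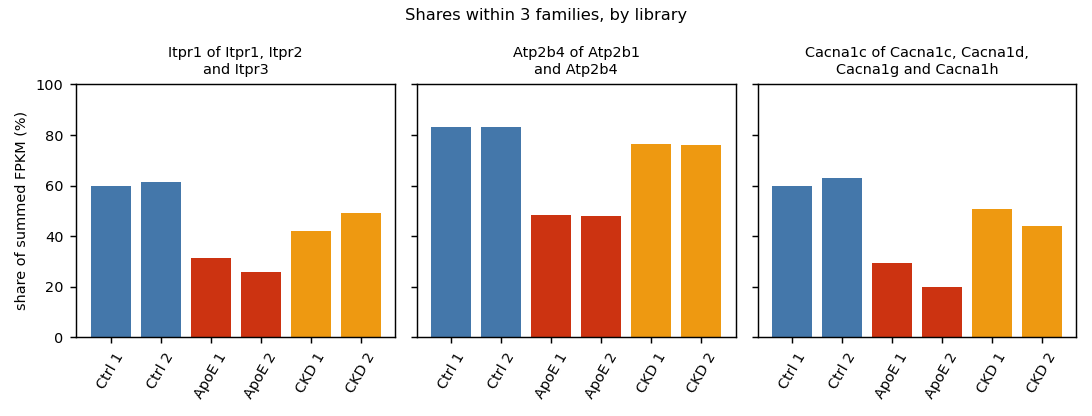
Share of summed FPKM, in percent, held by Itpr1, Atp2b4 and Cacna1c within their families, one bar per library. In each panel both ApoE bars are the lowest, both Ctrl bars the highest and both CKD bars lie between: Atp2b4 was at 48.4% and 48.0% in ApoE, 76.3% and 76.1% in CKD and 83.2% and 83.0% in Ctrl.

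Slc8a1, the sodium-calcium exchanger, stood at 4.98 and 4.93 FPKM in Ctrl, 6.93 and 4.29 in ApoE and 4.47 and 7.39 in CKD, with all groups overlapping. It was called in no comparison, and its ApoE difference was 0.12 (interval -0.54 to 0.79). Pln, phospholamban, which restrains SERCA2, lay between 0.0718 and 0.351 FPKM, or 3 to 14 reads. Casq2, a calcium-binding protein of the store, lay between 0.132 and 0.619 FPKM, with 6 and 7 reads in Ctrl, 27 and 14 in ApoE and 11 and 18 in CKD. Neither was tested. Of Pln's 2759 exon bases, 1785 are shared with Cep85l or Gm47644 in the annotation, so its reads cannot be assigned with certainty. Its level may be understated. Tagln, a smooth muscle marker with 1349 of 1988 exon bases shared, stood at 9.37 and 9.24 FPKM in Ctrl, beside 6034 and 5402 for Acta2. Whether reads on shared bases were left out of the values was not tested.

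Store-operated entry pairs Stim1, the calcium sensor of the reticulum, with Orai1, the channel pore it opens. Stim1 stood at 10.2 and 10.3 FPKM in Ctrl, 6.01 and 6.30 in ApoE and 13.1 and 12.0 in CKD. Orai1 stood at 9.11 and 6.25 FPKM in Ctrl, 12.9 and 11.0 in ApoE and 4.57 and 7.54 in CKD. The ApoE libraries were thus the lowest for the sensor and the highest for the pore. Stim1 fell by 0.65 (SE 0.11, adjusted p = 0.00643) in ApoE against Ctrl and by 0.92 (adjusted p = 0.00263) against CKD. Orai1 rose by 0.91 (SE 0.26, adjusted p = 0.0370) in ApoE against CKD, and its difference from Ctrl was 0.60 (adjusted p = 0.110). The ratio of Stim1 to Orai1 was 1.12 and 1.65 in Ctrl, 0.465 and 0.570 in ApoE and 2.87 and 1.59 in CKD. The Stim1 call against Ctrl was lost without Ctrl 1 (0.056) or Ctrl 2 (0.0552). The Orai1 call was lost without ApoE 1 (0.153), ApoE 2 (0.106) or CKD 1 (0.114), with the replicate block (0.0645) and without the filter on low values (0.0808).

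TRP channels are cation channels opened by receptors, calcium or mechanical and chemical stimuli. Trpm4, a calcium-activated channel that depolarizes the membrane, stood at 6.20 and 5.75 FPKM in Ctrl, 2.25 and 2.44 in ApoE and 4.38 and 4.26 in CKD. The replicates lay close together and the groups did not overlap. Trpm4 fell by 1.06 (SE 0.12, adjusted p = 0.00142) in ApoE against Ctrl and by 0.67 (adjusted p = 0.00798) against CKD, with a CKD difference from Ctrl of -0.39 (adjusted p = 0.0974).

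Trpc1, a receptor- and store-linked channel, stood at 2.42 and 2.09 FPKM in Ctrl, 0.985 and 0.779 in ApoE and 2.72 and 3.02 in CKD. It fell by 0.79 (SE 0.14, adjusted p = 0.00779) in ApoE against Ctrl, a call lost without Ctrl 1 (0.0662), and by 1.04 (adjusted p = 0.00387) against CKD. In CKD it lay slightly above Ctrl, by 0.25 (adjusted p = 0.291). Trpv4, a channel opened by osmotic and mechanical stimuli, stood at 12.8 and 8.75 FPKM in Ctrl, 6.80 and 5.74 in ApoE and 8.16 and 9.60 in CKD. Its ApoE difference of -0.68 (SE 0.20, adjusted p = 0.0387) was called, and the call was lost without ApoE 1 (0.0849), ApoE 2 (0.171) or Ctrl 1 (0.194), with the replicate block (0.0544) and without the filter on low values (0.0816). With white adipocyte level as a covariate the Trpv4 difference was -0.11. Trpc6, a receptor-operated channel, had 0 and 4 reads in Ctrl, 12 and 15 in ApoE and 8 and 3 in CKD and was not tested. A count of 0 in Ctrl 1 allows up to 3 reads, or 0.0356 FPKM, from counting error alone.

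Piezo1, a channel opened directly by membrane stretch, was among the 3 genes that rose in ApoE. Piezo1 (chromosome 8, 122481698 to 122551329) stood at 6.16 and 4.94 FPKM in Ctrl, 12.9 and 12.6 in ApoE and 11.1 and 8.63 in CKD. All 4 disease libraries lay above both Ctrl libraries. It rose by 1.08 (SE 0.16, adjusted p = 0.00414) in ApoE against Ctrl, and the CKD difference was 0.73 (adjusted p = 0.0589, and 0.0323 without CKD 2). With white adipocyte level as a covariate its ApoE difference was 0.95 (adjusted p = 0.13). Of its 9935 exon bases 2441 are shared with Ctu2, an antisense neighbour, and the library kit did not mark strand. Endothelial cells and macrophages are also known to express Piezo1. Of 12 endothelial markers 5 rose and 2 fell in ApoE against Ctrl, with sums of 484 and 403 FPKM in Ctrl, 426 and 421 in ApoE and 288 and 384 in CKD, and 20 of 22 macrophage markers rose. Their part in the Piezo1 result was not tested.

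On the log2(FPKM + 1) scale, potassium channels held both the largest fall and the largest rise of the 29 genes in ApoE against Ctrl. With a pseudocount of 0.1 FPKM the largest fall was that of Ryr2, with a difference of -3.93. Kcnmb1, the beta1 subunit that raises the calcium sensitivity of the large-conductance channel in smooth muscle, stood at 49.8 and 50.03 FPKM in Ctrl, 4.84 and 2.30 in ApoE and 16.8 and 32.2 in CKD. Kcnma1, the pore of that channel, stood at 5.57 and 4.15 FPKM in Ctrl, 0.244 and 0.252 in ApoE and 2.18 and 3.001 in CKD. Neither gene's groups overlapped, and CKD lay between the others for both. Kcnmb1 (chromosome 11, 33963013 to 33973641) fell by 3.54 (SE 0.37, adjusted p = 0.00123) in ApoE against Ctrl and by 2.47 (adjusted p = 0.00508) against CKD. Kcnma1 (chromosome 14, 23289431 to 24014491) fell by 2.22 (SE 0.19, adjusted p = 0.000610) and by 1.52 (adjusted p = 0.00278). In CKD against Ctrl, Kcnmb1 differed by -1.07 (adjusted p = 0.126) and Kcnma1 by -0.71 (adjusted p = 0.0785). Kcnmb1 per Kcnma1 was 8.94 and 12.1 in Ctrl, 19.8 and 9.11 in ApoE and 7.72 and 10.7 in CKD, overlapping in every pair of groups. With white adipocyte level as a covariate the Kcnmb1 difference was -2.65 (adjusted p = 0.0613).

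The ATP-sensitive channel of vascular muscle is built from Kcnj8, the Kir6.1 pore, and Abcc9, its SUR2 sulfonylurea receptor, which are neighbours on chromosome 6. Kcnj8 stood at 28.4 and 24.7 FPKM in Ctrl, 17.1 and 6.60 in ApoE and 24.9 and 33.8 in CKD. Abcc9 stood at 39.5 and 38.5 FPKM in Ctrl, 15.9 and 6.92 in ApoE and 33.9 and 50.7 in CKD. Both genes were lower in ApoE 2 than in ApoE 1, and the CKD libraries spanned the Ctrl level for both. Abcc9 fell by 1.79 (SE 0.38, adjusted p = 0.0132) in ApoE against Ctrl and by 1.88 (adjusted p = 0.0126) against CKD. Kcnj8 fell by 1.36 (SE 0.41, adjusted p = 0.0428) against CKD, and its difference from Ctrl was -1.23 (adjusted p = 0.0533). The ratio of Abcc9 to Kcnj8 was 1.39 and 1.56 in Ctrl, 0.930 and 1.05 in ApoE and 1.36 and 1.50 in CKD. Abcc9 was not called against Ctrl without Ctrl 1 (0.0601) or Ctrl 2 (0.0543), nor against CKD without CKD 2 (0.0532). Kcnj8 was not called against CKD without ApoE 2 (0.0995), CKD 1 (0.0778), CKD 2 (0.152), Ctrl 1 (0.0664) or Ctrl 2 (0.0658) or with the replicate block (0.0564), without the filter on low values (0.0927), with only the 4 libraries compared (0.065) or with white adipocyte level as a covariate (0.0662), while without ApoE 1 it was called against Ctrl (0.00983), as it was with scaling that leaves out the most abundant genes (0.0434). These channel genes are also known in pericytes. Of 7 pericyte markers 5 fell and 1 rose in ApoE against Ctrl, with sums of 820 and 790 FPKM in Ctrl, 185 and 146 in ApoE and 407 and 444 in CKD. Mcam was the most abundant of them, at 447 and 413 FPKM in Ctrl. The 1 that rose was Higd1b, by 0.94 (adjusted p = 0.0231), and Cox4i2 was not called (-0.09, adjusted p = 0.696). The part of these markers in the Kcnj8 and Abcc9 results was not tested.

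Kcnk3, the TASK-1 leak channel that helps hold the resting voltage, stood at 1.27 and 3.27 FPKM in Ctrl, 13.6 and 12.1 in ApoE and 23.6 and 7.02 in CKD. All 4 disease libraries lay above Ctrl, and the CKD libraries were the farthest apart. Kcnk3 (chromosome 5, 30588170 to 30625271) rose by 2.15 (SE 0.55, adjusted p = 0.0250) in ApoE against Ctrl, and the CKD difference was 2.17 (adjusted p = 0.0739). Brown and white fat are known to express this gene. Over 20 white adipocyte markers the summed level was 773 and 1718 FPKM in Ctrl, 5382 and 5594 in ApoE and 11141 and 3783 in CKD, with 15 higher and 1 lower in ApoE against Ctrl. The sum of 7 brown adipocyte markers was 79.5 and 199 in Ctrl, 551 and 519 in ApoE and 989 and 328 in CKD. CKD 1 was the highest library and Ctrl 1 the lowest for Kcnk3 and for both sums. With white adipocyte level as a covariate the difference of Kcnk3 from Ctrl was -0.05 (adjusted p = 0.934) in ApoE and 0.24 (adjusted p = 0.841) in CKD. Both Ctrl libraries were the lowest in the white adipocyte sum, so the covariate overlaps with group and this fit cannot separate them. Whether fat tissue had a part in the Kcnk3 result was not tested. The call was also lost without ApoE 1 (0.108), ApoE 2 (0.102) or Ctrl 1 (0.115) and without the filter on low values (0.061), while the CKD difference was called without CKD 2 (0.0226).

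**Figure D3:**
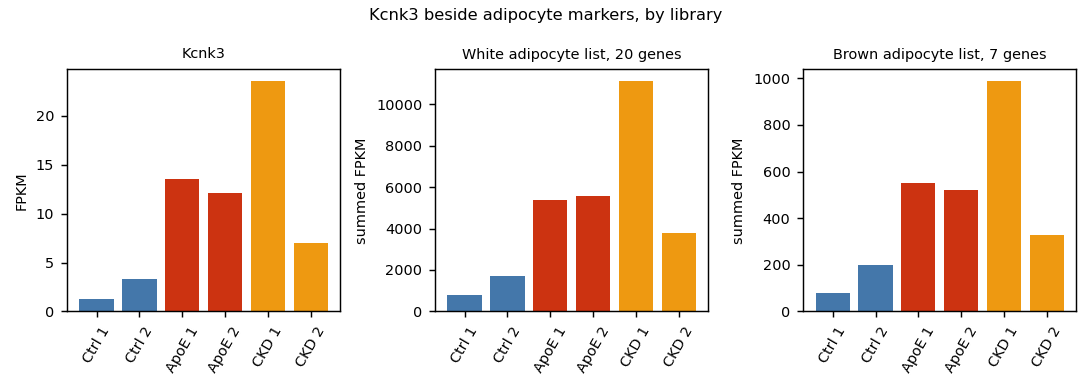
Kcnk3 in FPKM, and the summed FPKM of 20 white and 7 brown adipocyte markers, one bar per library. CKD 1 is the highest library in all 3 panels and Ctrl 1 the lowest, and Kcnk3 rises from 1.27 FPKM in Ctrl 1 to 23.6 in CKD 1.

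Kcna5, the voltage-gated channel Kv1.5, stood at 0.693 and 0.669 FPKM in Ctrl, 0.745 and 1.10 in ApoE and 1.94 and 0.605 in CKD and was called in no comparison. Kcnq5, a slowly activating voltage-gated channel of the Kv7 family, stood at 0.813 and 0.876 FPKM in Ctrl, 0.0816 and 0.0700 in ApoE and 0.387 and 0.324 in CKD. That corresponds to 104 and 102 reads in Ctrl, 10 and 8 in ApoE and 44 and 36 in CKD. The 3 groups of Kcnq5 did not overlap, but the gene stayed under 1 FPKM and was not tested. Fitted without the filter on low values, Kcnq5 had an ApoE difference from Ctrl of -0.78 (adjusted p = 0.00951).

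Chloride channels differed from each other as well. Ano1, the calcium-activated chloride channel TMEM16A, whose opening depolarizes smooth muscle, stood at 25.2 and 23.2 FPKM in Ctrl, 4.79 and 4.83 in ApoE and 18.3 and 20.5 in CKD. The ApoE replicates were nearly identical, and the groups did not overlap. Ano1 (chromosome 7, 144588549 to 144751974) fell by 2.11 (SE 0.12, adjusted p = 0.000238) in ApoE against Ctrl and by 1.81 (adjusted p = 0.000627) against CKD, with a CKD difference from Ctrl of -0.30 (adjusted p = 0.159). Clcn3, a chloride-proton exchanger of endosomes and vesicles, stood at 1.66 and 1.77 FPKM in Ctrl, 2.59 and 2.26 in ApoE and 2.68 and 2.76 in CKD. Its differences from Ctrl were 0.33 (adjusted p = 0.0840) in ApoE and 0.45 (adjusted p = 0.0885) in CKD, and with median-ratio scaling the first was called (0.0413).

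**Figure D4:**
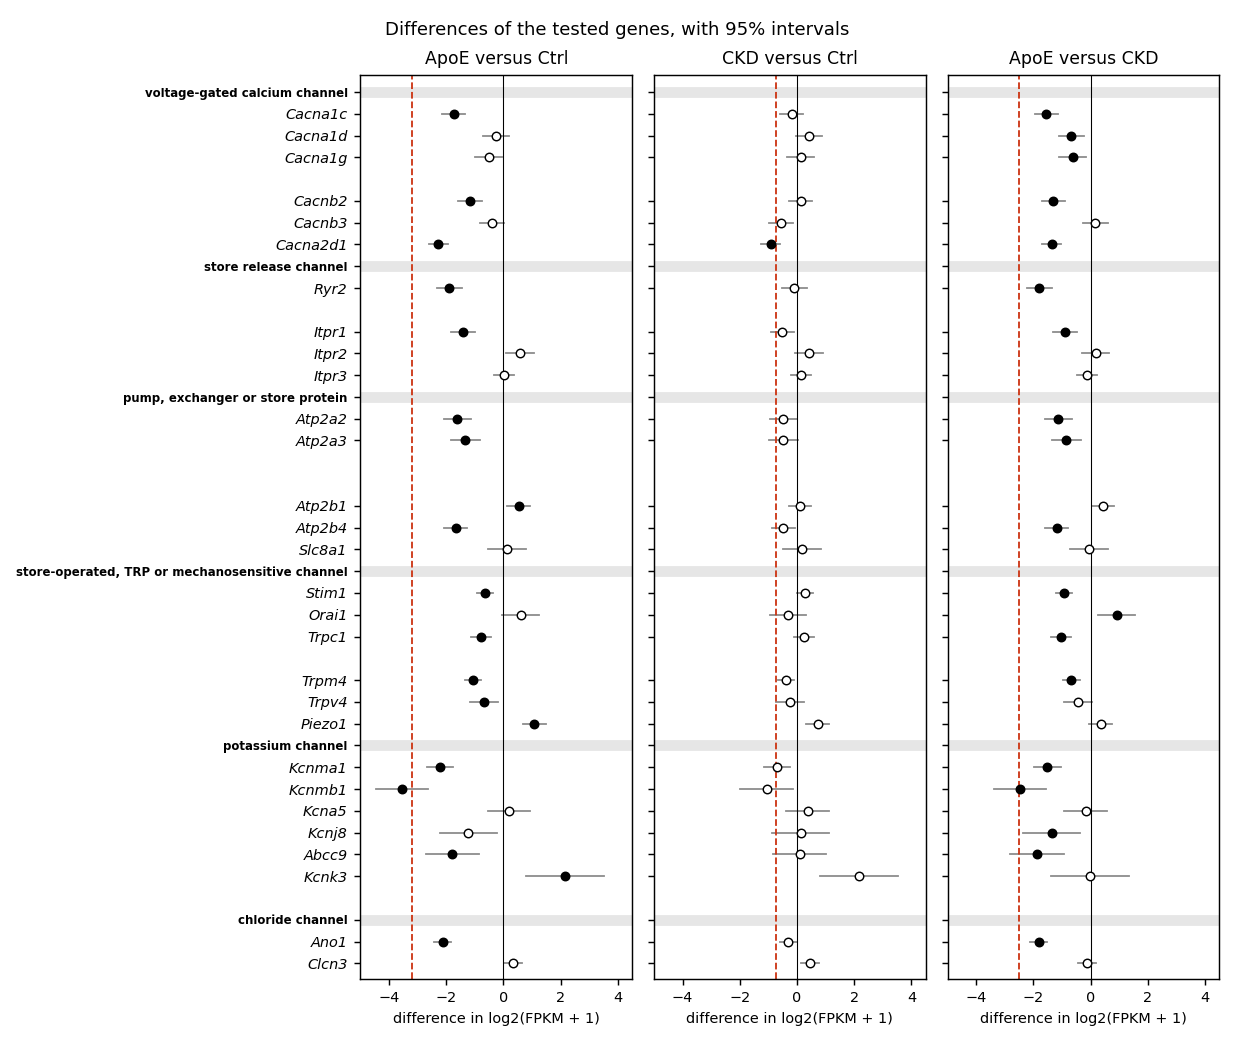
Difference in log2(FPKM + 1) of the 29 tested genes for each comparison, with 95% intervals. Filled points have an adjusted p below 0.05, and the dashed red line is the median of the 22 contractile smooth muscle markers (-3.19, -0.72 and -2.49). In ApoE against Ctrl only Kcnmb1, at -3.54, lies left of that line.

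The falls of these genes stood beside a larger fall of contractile smooth muscle markers. Of 22 contractile markers, 21 fell in ApoE against Ctrl, with a median of -3.19, 20 fell in ApoE against CKD, with a median of -2.49, and 3 fell in CKD against Ctrl, with a median of -0.72. The contractile sum was 14007 and 12671 FPKM in Ctrl, 1342 and 1138 in ApoE and 6371 and 9849 in CKD. Markers of other cell types moved as well. Of 11 fibroblast markers, 7 fell in ApoE against Ctrl, with sums of 3022 and 2695 FPKM in Ctrl, 1493 and 1094 in ApoE and 2277 and 2983 in CKD. All 5 mesothelial markers tested rose in CKD against Ctrl, with sums of 0.456 and 1.06 FPKM in Ctrl, 9.88 and 5.88 in ApoE and 61.1 and 47.4 in CKD. Of 6 cardiomyocyte markers tested 3 rose in CKD against Ctrl, with sums of 8.28 and 7.91 FPKM in Ctrl, 12.8 and 12.6 in ApoE and 29.0 and 35.03 in CKD. The part of these markers in the results was not tested. In ApoE against Ctrl, 28 of the 29 genes lay above the contractile median, and Kcnmb1 lay below it, with a difference from it of -0.35. With a pseudocount of 0.1 FPKM in place of 1, 26 lay above it and 3 below. In ApoE against CKD all 29 lay above it, or 25 with the smaller pseudocount. In CKD against Ctrl 27 lay above it. These are positions within each comparison and were not tested. The medians of all genes tested (-0.07, -0.03 and -0.04) lay above the contractile median in each comparison too. How many of all genes lay above it was not counted, so these counts set nothing apart about the 29. The scale understates the change of low genes, which most of these are beside the contractile markers.

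By library order alone, 20 of the 29 tested genes were lower in both ApoE than in both Ctrl libraries, where 43.0% of all genes tested were, and 7 were higher, where 36.4% were. For CKD against Ctrl these counts were 11 lower, where 35.1% of all genes were, and 7 higher, where 29.1% were. For ApoE against CKD they were 20 lower, where 38.0% were, and 3 higher, where 33.0% were. Of the 19 calls in ApoE against Ctrl, 6 held under each of 13 other settings, those of Cacna1c, Cacna2d1, Ryr2, Atp2b4, Kcnma1 and Ano1. With white adipocyte level as a covariate, those 6 genes fell and 1, Orai1, rose by 1.54 in ApoE against Ctrl. Over all genes 771 fell and 843 rose with that covariate. How many of all called genes held under every setting was not counted, here or in ApoE against CKD. Beside the genes given above, that covariate ended the calls of Atp2a3 (adjusted p = 0.166), Atp2a2 (0.068), Itpr1 (0.0818), Abcc9 (0.355), Stim1 (0.0922), Trpc1 (0.26), Trpm4 (0.0588) and Cacnb2 (0.0804). Of the 19 calls in ApoE against CKD, 11 held under each of 14 other settings.

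The rest of the pathway was followed in 134 further genes of the same kinds, 133 of which were in the files and 74 tested. In ApoE against Ctrl 33 of the 74 fell and 24 rose, where 24.3% and 19.8% of all genes tested did. In CKD against Ctrl 6 fell and 0 rose, where 3.21% and 2.23% did. In ApoE against CKD 28 fell and 23 rose, where 21.2% and 18.5% did. The medians were -0.25, -0.19 and -0.01, against -0.07, -0.03 and -0.04 over all genes. Casq1, a calcium-binding store protein best known from skeletal muscle, stood at 39.0 and 43.2 FPKM in Ctrl, 0.611 and 0.621 in ApoE and 5.79 and 8.91 in CKD. It was thus far more abundant than Casq2 in Ctrl, and fell by 4.70 (adjusted p = 0.000172) in ApoE and by 2.36 (adjusted p = 0.0145) in CKD, both against Ctrl. The CKD call was lost without Ctrl 1 (0.0948), Ctrl 2 (0.0936), ApoE 1 (0.0535) or ApoE 2 (0.0517), without the filter on low values (0.0576), with only the 4 libraries compared (0.0504) and with white adipocyte level as a covariate (0.207). The sum of 11 skeletal muscle markers was 10.4 and 16.5 FPKM in Ctrl, 5.14 and 5.19 in ApoE and 8.92 and 8.22 in CKD, and the part of these markers in the Casq1 result was not tested.

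Among other channels, P2rx1, an ATP-gated cation channel of smooth muscle, stood at 24.2 and 24.0 FPKM in Ctrl, 2.41 and 2.61 in ApoE and 15.5 and 15.5 in CKD. The groups did not overlap, with CKD between the others. P2rx1 fell by 2.84 (adjusted p = 0.000172) in ApoE against Ctrl and by 2.23 (adjusted p = 0.000525) in ApoE against CKD.

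Slc24a4, a potassium-dependent sodium-calcium exchanger, stood at 5.93 and 7.35 FPKM in Ctrl, 0.0139 and 0.0446 in ApoE and 4.40 and 3.37 in CKD. It fell by 2.89 (adjusted p = 0.000257) in ApoE against Ctrl. In ApoE 1 and ApoE 2, 1 read in 2 kb of exon is worth 0.0314 and 0.0336 FPKM. With 4522 exon bases, its ApoE values thus rest on very few reads, and the size of the fall depends on the pseudocount. Atp2b2, a plasma membrane calcium pump, stood at 2.97 and 2.74 FPKM in Ctrl, 0.652 and 0.517 in ApoE and 0.579 and 1.12 in CKD, and fell by 1.08 (adjusted p = 0.0393) in CKD against Ctrl. That call was lost without any of Ctrl 1 (0.24), Ctrl 2 (0.167), CKD 1 (0.0959), ApoE 1 (0.0782) and ApoE 2 (0.0777), and also with the replicate block (0.0845), the covariate (0.551), a pseudocount of 0.1 FPKM (0.0562), no filter (0.0871) or only the 4 libraries compared (0.0719). Kcnn4, the intermediate-conductance calcium-activated potassium channel, stood at 3.83 and 3.76 FPKM in Ctrl, 10.7 and 11.6 in ApoE and 0.978 and 1.43 in CKD. Its CKD libraries were the lowest and its ApoE libraries the highest, falling by 1.13 (adjusted p = 0.0272) in CKD against Ctrl and rising by 2.47 (adjusted p = 0.000542) in ApoE against CKD. The Kcnn4 call in CKD against Ctrl was lost without Ctrl 1 (0.184), Ctrl 2 (0.145), CKD 1 (0.0652), ApoE 1 (0.0636) or ApoE 2 (0.0622), and with the replicate block (0.0615), the covariate (0.4), no filter (0.0706) or only the 4 libraries compared (0.0574). Kcnab2, a cytosolic beta subunit of voltage-gated potassium channels, stood at 1.11 and 1.42 FPKM in Ctrl, 10.5 and 12.0 in ApoE and 1.32 and 2.01 in CKD, and rose by 2.21 (adjusted p = 0.000950) in ApoE against CKD. Macrophages are known to express Kcnn4 and Kcnab2, and the part of the macrophage markers, 18 of 22 of which rose in ApoE against CKD, in these results was not tested.

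Of the 35 genes, 16 share exon bases with another annotated gene, and for Pln and Piezo1 the shared part is over 10%. For the others it is smaller: Cacna1d with Chdh, Cacna1h with Tpsg1, Cacnb2 with Gm10849, Gm13269 and Gm10848, Ryr3 with Aven, Itpr1 with Gm44101 and Gm44040, and Itpr3 with Itpr3os and Mir7677. The same holds for Atp2a2 with Gm43361, Atp2b4 with Mir6903, Slc8a1 with Gm11096 and a second unnamed transcript, Orai1 with Gm2479, Kcnma1 with 4930519K11Rik, Abcc9 with 5330439B14Rik, Kcnk3 with Gm9899 and Kcnq5 with Gm26580. Casq1 overlaps Gm17224, and Kcnab2 overlaps Gm16334. Reads of pairs on opposite strands cannot be told apart without strand. Atp2b4 and Mir6903, Itpr3 and Mir7677, and Kcnab2 and Gm16334 lie on the same strand, where strand would not separate them.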

How the data were processed

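No header or label names the unit of the deposited values, and their pattern identified them as FPKM, reads divided by exon length and library depth. HISAT2 2.1.0, TopHat2 and Bowtie2 2.2.3 are named with build GRCm38, per the submitters' processing notes. What each tool did, how reads were counted and on which annotation is not given in the sources used here. In 5 files identifiers and values were stacked in 1 column, as the authors deposited them, and in 1 they stood in 2 columns. Of 27815 identifiers, symbols were matched for 27695 and GENCODE M21 exon lengths for 27730. Value times exon length gave whole reads, within 0.05, for 93.2% to 93.5% of values below 200 reads, which gave the depth of 14.44 to 16.64 M reads. Per the labels, the kit was poly-A selected and did not mark strand.

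Tests ran on log2(FPKM + 1), over the 14074 genes that reached 1 FPKM in 2 or more libraries. All 6 libraries entered 1 limma model of group means (limma 3.58.1, R 4.3.3, variance trend, robust), from which the 3 contrasts between groups were taken. The Benjamini-Hochberg adjustment ran over all genes tested, and an adjusted p below 0.05 was a call. The fit was run on simulated data with far fewer changed genes than were called in ApoE against Ctrl. That run gives no measure of false calls in these data. Tables were made with Python 3.11.15 and pandas 2.3.3.

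The 35 genes, the marker lists and the pathway lists were chosen with earlier results of these data known. Each of the 35 is named. Of the other pathway genes, up to 4 called genes per comparison with the smallest adjusted p and a mean of at least 1 FPKM are named. A gene that this rule selects is not reported here. Other settings were another scaling, no filter, a pseudocount of 0.1 FPKM, only the 4 libraries compared, a replicate block, the mean log2 level of the white adipocyte markers as a covariate, and each library left out.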

Additional observations from a re-analysis of the deposited data

How the results depend on the processing

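Among called genes the one change of sign was Kcnk3 in ApoE against Ctrl, at -0.05 with white adipocyte level as a covariate. Called or not, 6, 10 and 4 of the 29 tested genes changed sign under some setting in ApoE against Ctrl, CKD against Ctrl and ApoE against CKD. The share of all genes that changed sign was not counted. In ApoE against Ctrl that covariate left 6 of the 35 genes lower and 1 higher, and 771 genes lower and 843 higher over all genes, and without the filter on low values 1 of the 35 was higher, with 2377 over all genes. Leaving out 1 library gave 12 to 16 of the 35 lower and 1 to 3 higher, and over all genes 1623 to 3747 lower and 1369 to 3281 higher. In CKD against Ctrl 0 of the 35 were lower without the filter (0 lower and 1 higher over all genes), with only the 4 libraries compared (0 and 3), with the replicate block (20 and 26) and with the covariate (0 and 0). At an unadjusted p below 0.05, limma gave 13 of 35, 10 of 28, 9 of 29 and 1 of 29 tested in these settings, where 18.9%, 29.4%, 25.6% and 10.0% of all genes passed. Leaving out 1 library gave 0 to 4 lower and 0 to 2 higher, and over all genes 0 to 1214 lower and 0 to 1152 higher, the highest without CKD 2. In ApoE against CKD 2 of the 35 were higher with median-ratio scaling (2898 over all genes), 0 without the filter (2273) and 0 with the replicate block (2156). Leaving out 1 library gave 12 to 16 lower and 0 to 2 higher, and over all genes 1263 to 2544 lower and 1296 to 2397 higher. The cause of these shifts was not tested. Same-numbered libraries share only a number: their deviations correlated at 0.046 (Ctrl and ApoE), -0.233 (Ctrl and CKD) and -0.097 (ApoE and CKD) over 14074 genes. The replicate block gave 15 lower and 2 higher in ApoE against Ctrl (2849 and 2310 over all genes), and 16 lower in ApoE against CKD (2400). With the CKD numbers crossed, a setting chosen after seeing the data, 1 of the 35 (Kcnk3) and 579 genes in all were higher in CKD against Ctrl. With 2 libraries a group and 14.44 to 16.64 M reads, genes under 1 FPKM can rest on few reads. Long genes need not: Cacna1c at 0.817 FPKM in ApoE 1 had 276 reads.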
